A study of Mus musculus with 5 samples.

Results

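This account describes 39 genes of the lysosome in a comparison of Bmal1-knockout with wild type mouse marrow stromal cells. They were taken by gene symbol from the 14161 genes listed in any library, by a rule that uses gene function. The list was drawn up with earlier results of these data known. The list holds 11 hydrolases, 4 soluble activators and carriers of the lysosomal lumen, 9 membrane proteins and 15 genes of the vacuolar proton pump (V-ATPase). Cathepsins were left out. All 39 were found, 38 of them in every library, and 34 had enough counts to be tested. RNA came from cultured cells labelled bone mesenchymal stem cells, isolated from femur marrow of C57BL/6 mice aged 6 to 8 weeks and kept at passages 1 to 3 in medium with 12% serum. There were 3 libraries of cells with the genotype Bmal1-knockout and 2 of Wild Type cells, and no other treatment is given. The sources used here do not say how the allele was made, whether animals were pooled or whether each library came from its own animal. The p-values thus rest only on spread between these libraries, which may be technical. The fit shares its estimate of spread across all tested genes, so a p-value does not measure the spread of its own gene alone.

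Lysosomes are acidic organelles in which proteins, lipids and glycans taken up by endocytosis or autophagy are broken down. The V-ATPase drives protons into the lumen: its V1 sector burns ATP on the cytosolic side, and its V0 sector forms the channel in the membrane. Many lysosomal genes carry a CLEAR element, an E-box with a T before and an A after its core, which the transcription factor TFEB and its relatives bind. BMAL1, paired with CLOCK, binds the same E-box core, CACGTG. Lysosomal genes are active in most cells and are most abundant in phagocytes, such as macrophages, and in osteoclasts.

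The libraries held 211623 to 281990 expected counts each, which is shallow. Levels are given as CPM, counts scaled to one common library size by the TMM totals of the tested genes, and a gene without a count could still lie at 12.1 to 15.9 CPM, depending on the library (3 counts, counting error only). The libraries correlated more closely within a genotype (Spearman rho 0.83 to 0.851 across tested genes) than between genotypes (0.729 to 0.753). Arntl, the gene of BMAL1, had 4, 1 and 2 counts in knockout cells, against 5 and 0 in wild type cells, so it does not check the labels. Macrophage markers were abundant in these cultures. Of 20 listed, 19 were tested, 8 were lower in the knockout and none was higher, and their summed level was 10420 to 11872 CPM in the knockout and 16652 to 17059 CPM in the wild type libraries. Lyz2, the macrophage lysozyme, made up most of that sum: 6789 of 11022 CPM in knockout and 10767 of 16855 CPM in wild type means. Adgre1, the antigen F4/80, averaged 622 against 837 CPM, with overlapping groups (769, 528 and 571 against 935 and 739 CPM). Of 12 stromal markers 9 were tested and 5 were higher, and the 12 summed to 12798 to 13774 against 4975 to 4994 CPM. The 5 were the collagen genes Col3a1, Col1a2 and Col1a1, with Sparc and Cxcl12, and they made up most of that sum. Pdgfra (log2 fold change -0.34), Pdgfrb (0.15), Prrx1 (0.39) and Dcn (1.01) did not pass, and Thy1, Lum and Lepr were too low to test. Among all tested genes 8.14% were lower and 8.19% higher. The osteoclast markers Dcstamp, Ocstamp and Calcr had no row in any library, while Acp5 fell (84.3 against 213 CPM) and Ctsk did not pass (82.4 against 125 CPM), and the 5 listed osteoclast genes summed to 170 to 216 against 356 to 442 CPM. Markers of neutrophils (0 of 1 tested, Mmp8), of B, T and NK cells (0 tested), of erythroid cells (0 tested) and of endothelium (0 of 2) had no member past the test, and of megakaryocytes and mast cells the 1 tested gene, Pf4, fell. The part of these shifts in cell markers in the results below was not tested. In bulk RNA, fewer cells of a type and less RNA per cell cannot be told apart.

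The promoters show how close the E-box core lies to some of these genes. Of the 39, 33 have a window of 300 bases (250 before and 50 after the start) in RefSeq's GRCm38.p6 tables, the same assembly as mm10. In 9 of the 33 (27.3%) the window holds CACGTG, which reads the same on both strands, against 12.4% of 2917 tested genes and 8.09% of all 27025 genes with such windows. The longer form, with T before and A after, was in 5 of 33 (15.2%), against 2.61% and 1.12%, and each such match is also a match of the core. Lamp1 and Gla are shown at length because they hold the most copies of the core and of the longer form among the members and also passed the expression test. The stretches are upstream of the start that RefSeq's window uses; that of Atp6v1a lies inside the gene's annotated span and that of Atp6v0b overlaps the edge of its gene's. They run 5′ to 3′ along the gene's strand, with the core in capitals.
Lamp1, chr8:13159081-13159160, plus strand: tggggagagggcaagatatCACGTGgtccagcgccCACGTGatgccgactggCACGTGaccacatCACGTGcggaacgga
Gla, chrX:134601186-134601245, minus strand: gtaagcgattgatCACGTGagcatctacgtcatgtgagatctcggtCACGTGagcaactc
Lamp1 has 4 copies of the core within these 80 bases, a number reached in 3 of the 2917 tested genes. Both cores of Gla are in the longer form, and 9 of the 2917 tested genes have 2 or more of those. For comparison, 3 members with the core that did not pass the test are given, along with Mcoln1, which was too low to test.
Atp6v1a, chr16:44139375-44139400, minus strand: ttttttaaatCACGTGataggcttaa
Glb1, chr9:114401020-114401045, plus strand: gcttctgagtCACGTGgcctacagag
Atp6v0b, chr4:117887332-117887375, minus strand: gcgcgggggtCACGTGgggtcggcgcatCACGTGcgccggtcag
Mcoln1, chr8:3500438-3500489, plus strand: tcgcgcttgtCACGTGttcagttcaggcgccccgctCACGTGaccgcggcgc
The other members with the core in the window were Gaa, Atp6v0d1 and Atp6v0e. The core was in 2 of the 8 members that fell and in 6 of 21 that were tested, had a window and did not pass. The median log2 fold change was -0.32 over the 8 tested members with the core (-1.23 to 0.47) and -0.41 over the 21 without it (-1.35 to 0.34). Among all tested genes with a window, the core was in 8.7% of those higher, 10.6% of those lower and 13% of the rest. Psap and Gpnmb, with the smallest p-values of the members, have no core in their windows. A match is a description of letters and not of binding.

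Per length, the lysosomal genes spanned a wide range, which the plot of FPKM by rank shows. FPKM, the authors' value per length and sequencing depth, averaged 475 over the 5 libraries for the highest member, Psap, and 5.42 for the lowest, Mcoln1, with a median of 26.8. Psap alone made up 19.1% ± 3.0 (SD over 5 libraries) of the FPKM summed over the members, and the 6 highest genes 53.6%. These were Psap, Lamp1, Cd63, Grn, Laptm4a and Npc2: soluble or membrane proteins and not enzymes. That holds among the 39 members only, as the lysosomal hydrolase Manba, which is no member, averaged 1069 FPKM. The highest hydrolase was Hexa, at rank 9, and the highest V-ATPase gene Atp6v1g1, at rank 8. The order was nearly the same in both genotypes (Spearman rho 0.95 between group means over the 39 genes, which share library and depth). Membrane proteins took 33.6%, 39.6% and 38.2% of the members' FPKM in knockout cells, against 32.1% and 33.8% in wild type cells, and soluble activators and carriers 30.5%, 28.7% and 26.4% against 33.5% and 34.3%. Hydrolases held 10.8% to 13.3% and V-ATPase genes 19.2% to 23.6% over all libraries.

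**Figure D1:**
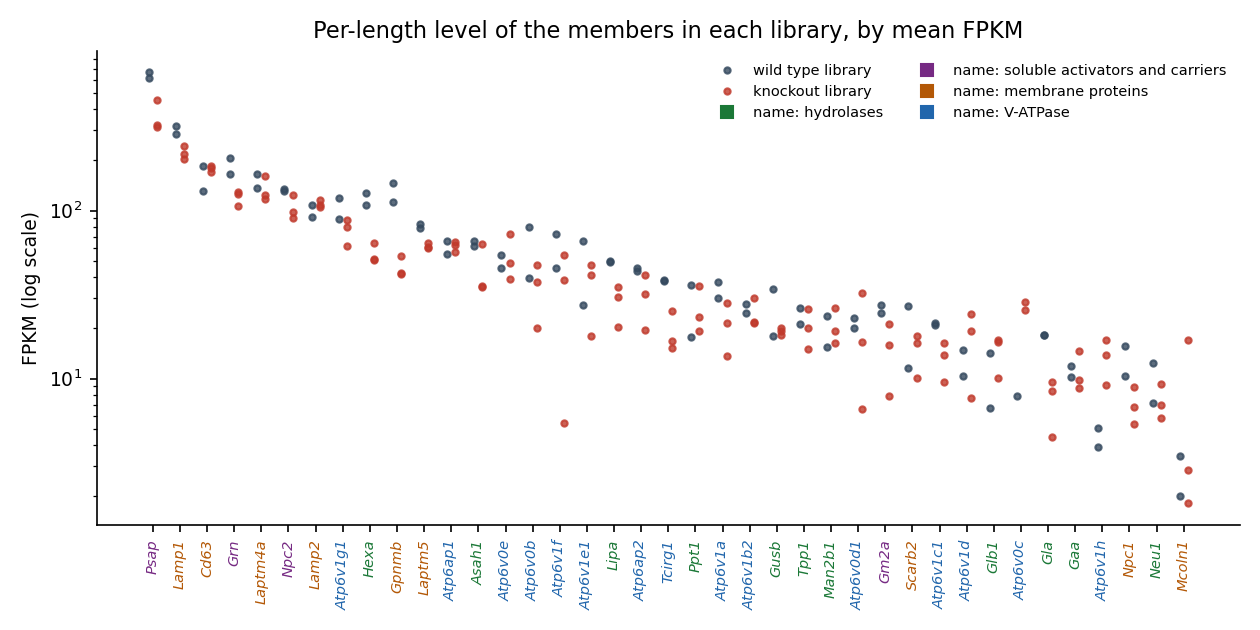
FPKM of each member in each library (log axis), ordered by the mean over the 5 libraries from Psap (475) to Mcoln1 (5.42); each point is 1 library, names are coloured by role, and Atp6v0c has no point in 2 libraries where it was not listed. Wild type points lie above all knockout points for Psap, Lamp1, Hexa and Gpnmb, while the groups overlap for Cd63 and Laptm4a.

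Of the 34 tested members 8 were lower in the knockout and none was higher at an adjusted p under 0.05 in edgeR's quasi-likelihood test, that is 23.5% lower against 8.14% of all 3710 tested genes; 8.19% of all tested genes were higher. Those that fell were Psap, Grn, Gpnmb, Lamp1, Hexa, Lipa, Gla and Tcirg1. At an unadjusted p under 0.05 there were 12 of 34, all of them lower, against 27.6% of all tested genes in either direction. DESeq2 also called none higher, and 3 lower. The log2 fold change was below 0 for 27 of the 34 (79.4%, against 49.5% of all tested genes) with a median of -0.42, against 0.01 over all tested genes. In 17 of the 34 (50%) every knockout library was below both wild type libraries, and in 1, Lamp2, every knockout library was above them, against 21.6% and 21.2% of all tested genes. The 17 include Gla and Atp6v1c1, which passed the filter on low counts only through the wild type libraries. The separation of their groups is thus partly set by the filter, and Gla is also among the 8 that fell. The members were chosen with earlier results of these data known, and these counts carry no test of the list. Without wild type 2 the number that fell was 2, Psap and Gpnmb, and without wild type 1 or knockout 2 it was 4. In each fit without a wild type library, here and below, the lone wild type library is assumed to vary as the knockout libraries do.

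**Figure D2:**
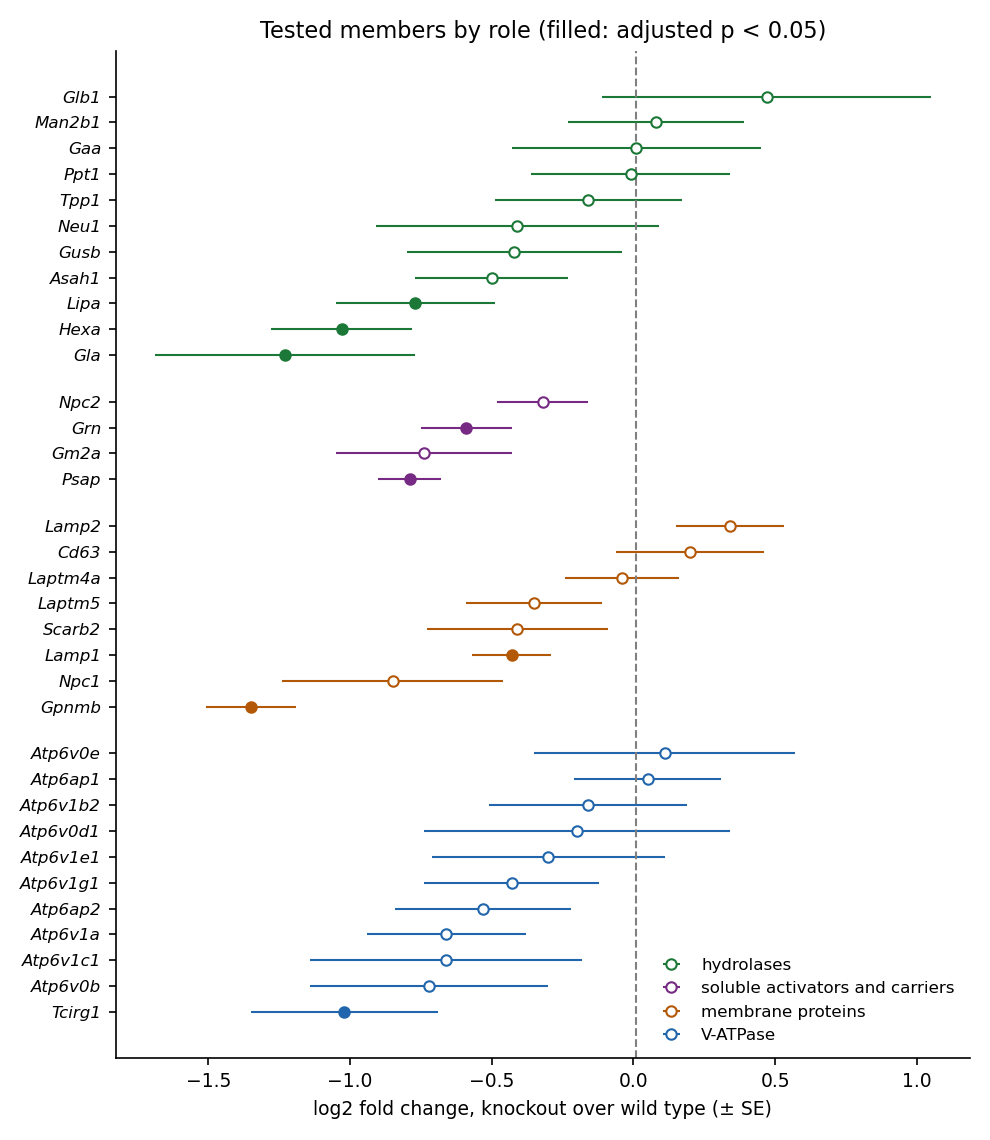
Log2 fold change, knockout over wild type, with its standard error for the 34 tested members, grouped by role; filled points have an adjusted p under 0.05 and the dashed line is the median of all tested genes (0.01). The 8 filled points all lie left of the line, from -1.35 (Gpnmb) to -0.43 (Lamp1), and Lamp2 (0.34) and Glb1 (0.47) are the members farthest to the right.

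Hydrolases are the enzymes that cleave glycans, lipids and proteins in the lumen. Of the 11, 3 fell, 8 did not pass and none rose, beside 8.14% of all tested genes that were lower. Of the 3, Gla passed the filter on low counts only through the wild type libraries. Hexa encodes the alpha chain of beta-hexosaminidase, which removes a sugar from the ganglioside GM2 (Entrez gene 15211, chromosome 9, 59539540 to 59565109, in GRCm38.p6, as for all positions here). It was at 125, 128 and 166 CPM with Bmal1 knocked out, against 268 and 308 CPM in wild type cells. All knockout values lay below both wild type values, and the log2 fold change was -1.03 (SE 0.25, adjusted p = 0.000636), or 2.04-fold lower. Without wild type 2 it was -0.93 with an adjusted p of 0.0505. Of its exon bases, 255 lie opposite exons of Tmem202, and no source used here gives the strand setting of the counting.

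Gla, alpha-galactosidase A, which cleaves globotriaosylceramide (Entrez gene 11605, chromosome X, 134588169 to 134601005), had 8, 4 and 9 counts in knockout cells, against 16 and 14 in wild type cells. The groups did not overlap (log2 fold change -1.23, SE 0.46, edgeR adjusted p = 0.0453). Since Gla passed the filter on low counts only through the wild type libraries, that separation is partly set by the filter. Its call was the least stable of the 8: 13 of 14 alternative settings lost it, and its adjusted p over the 14 ran from 0.0421 to 0.283. The fold change was -0.98 when knockout 2 was left out and -1.37 for knockout 3, and -1.24 and -1.25 for wild type 1 and 2, all short of the threshold. Lipa, the acid lipase that frees cholesterol and fatty acids from lipoprotein lipids (Entrez gene 16889, chromosome 19, 34492316 to 34527474), was at 139, 85.6 and 130 CPM with Bmal1 knocked out, against 202 CPM in both wild type libraries. It fell by 0.77 on the log2 scale (SE 0.28, adjusted p = 0.0375). That call was lost when knockout 2 (-0.58) or knockout 3 (-0.84) was left out, and when either wild type library was (-0.78 without the first, -0.77 without the other), and with DESeq2 (-0.76).

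The second highest hydrolase per length, Asah1, the acid ceramidase, was at 187, 109 and 113 CPM in the knockout against 188 and 197 CPM. Knockout 1 sat just under the wild type libraries and knockout 2 and 3 well under them (log2 fold change -0.50, adjusted p = 0.214). Gusb, beta-glucuronidase, was at -0.42 and Neu1, a sialidase, at -0.41. Tpp1 and Ppt1, a peptidase and a thioesterase whose loss causes neuronal ceroid lipofuscinosis, were at -0.16 and -0.01. Man2b1, an alpha-mannosidase, was at 0.08, Gaa, which breaks down glycogen, at 0.01, and Glb1, beta-galactosidase, at 0.47 with an interval of -0.67 to 1.61. The groups of all these but Asah1 overlapped. The median of the 11 hydrolases was -0.41, and 0.06 without wild type 1. Their summed level was 1043, 780 and 1007 CPM in knockout cells, against 1377 and 1222 CPM in wild type cells.

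Of the 4 soluble activators and carriers, Psap, Gm2a and Npc2 encode proteins that hold lipids for the enzymes or for export. Psap and Grn fell, Gm2a and Npc2 did not pass, and in all 4 the knockout libraries lay below both wild type libraries. Among all tested genes 8.14% were lower, and in 21.6% every knockout library was below both wild type libraries. Psap encodes prosaposin, the precursor of the saposins that present sphingolipids to hydrolases (Entrez gene 19156, chromosome 10, 60277628 to 60302600). It was at 1605, 1193 and 1194 CPM with Bmal1 knocked out, against 2410 and 2190 CPM in wild type cells. Means were 1330 ± 237 CPM (SD, n = 3) and 2300 ± 156 CPM (SD, n = 2), and Psap fell by 0.79 on the log2 scale (SE 0.11, edgeR adjusted p = 1.39e-10). It kept its call in all 15 alternative settings, from -0.94 to -0.72.

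Grn, progranulin, a secreted and lysosomal glycoprotein cut into granulins (Entrez gene 14824, chromosome 11, 102430507 to 102436809), was at 399, 409 and 352 CPM in knockout cells, against 522 and 643 CPM in wild type cells. The log2 fold change was -0.59 (SE 0.16, adjusted p = 0.00427), and without wild type 2 it was -0.44 and did not pass. The call of Grn was also lost with DESeq2 (-0.58, adjusted p = 0.0564) and with limma on both FPKM scales (adjusted p = 0.0576 and 0.0643). Npc2, which carries cholesterol out of the lumen, was at 553, 452 and 429 CPM against 611 and 579 CPM. That difference did not pass (log2 fold change -0.32, SE 0.16, adjusted p = 0.155), but it did without knockout 1 (-0.43, adjusted p = 0.0484; over all its settings it passed in that 1 only). Gm2a, the activator that lifts GM2 ganglioside to beta-hexosaminidase, was at 91.3, 47.5 and 130 CPM against 146 and 159 CPM. The knockout libraries of Gm2a spread widely. Its log2 fold change of -0.74 (SE 0.31) did not pass (edgeR adjusted p = 0.0903). It was -1.13 and past the threshold without knockout 3, and Gm2a also passed in 3 other settings. The median of the 4 was -0.66, and their summed level 2101 to 2647 CPM against 3572 to 3688 CPM.

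**Figure D3:**
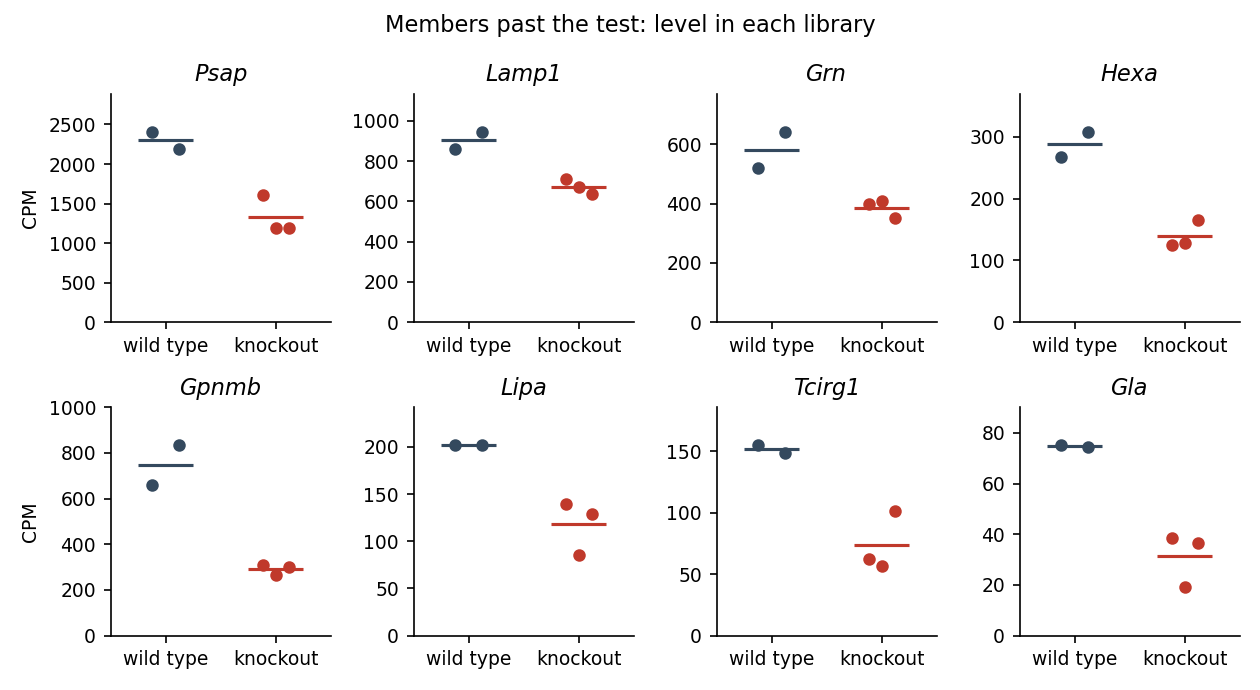
Level in CPM of the 8 members past the test; each point is 1 library (2 wild type, 3 knockout), lines are group means and each axis starts at 0. In all 8 panels every knockout library lies below both wild type libraries, as for Gpnmb (266 to 308 against 658 and 834 CPM). The 8 were selected by the test on these same values, so the separation is no further support. Among all tested genes 21.6% were apart in that direction. Gla passed the filter on low counts only through the wild type libraries.

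Of the 9 membrane proteins 8 were tested, of which 2 fell and 6 did not pass, beside 8.14% of all tested genes that were lower. Gpnmb, a glycoprotein of macrophages, osteoclasts and melanocytes found on lysosomes and at the cell surface, had the largest fold change of the tested members (Entrez gene 93695, chromosome 6, 49036518 to 49058182). It was at 308, 266 and 299 CPM with Bmal1 knocked out, against 658 and 834 CPM in wild type cells. The log2 fold change was -1.35 (SE 0.16, adjusted p = 2.83e-14), or 2.55-fold lower, and the call was kept in all 15 alternatives (-1.53 to -1.18). Its expected counts were not whole in 4 of the 5 libraries, so a few reads were shared out with other genes.

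Lamp1 and Lamp2 encode the most abundant glycoproteins of the lysosomal membrane, and they stood on opposite sides of 0. Lamp1 (Entrez gene 16783, chromosome 8, 13159161 to 13175338) was at 711, 670 and 635 CPM in knockout cells, against 860 and 946 CPM in wild type cells, which is a log2 difference of -0.43 (SE 0.14, adjusted p = 0.0179). The call was lost when knockout 2 (-0.42) or knockout 3 (-0.39) was left out, and when either wild type library was (-0.51 without the first, -0.36 without the other) and with DESeq2 (-0.41), and 249 of its exon bases lie opposite Grtp1. Lamp2, which also serves chaperone-mediated autophagy, was at 389, 423 and 417 CPM with Bmal1 knocked out, against 329 and 319 CPM in wild type cells. The knockout values were all above the wild type ones, and the difference did not pass (0.34, SE 0.19, adjusted p = 0.223), with a range of 0.31 to 0.38 when each library was left out. In FPKM the groups of Lamp2 overlapped (115, 105 and 108 against 108 and 92.0), with a log2 difference of 0.13 in limma.

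Cd63, a tetraspanin of late endosomes and exosomes, was at 197, 195 and 214 CPM in knockout cells, against 207 and 144 CPM in wild type cells, with overlapping groups (0.20, adjusted p = 0.670). Laptm4a was at 264, 285 and 368 CPM against 287 and 351 CPM (-0.04, adjusted p = 0.916). Its relative Laptm5, a protein of blood cells, was at 192 to 214 CPM against 254 and 266 CPM; the groups were apart but the difference did not pass (-0.35, adjusted p = 0.333). Scarb2, the receptor that brings glucocerebrosidase to the lysosome, was at -0.41, and its wild type libraries differed by more than the genotypes did (179 and 74.4 CPM). Npc1, the partner of NPC2 in cholesterol export, was at -0.85 (SE 0.39, adjusted p = 0.130), on 10, 14 and 10 counts against 16 and 21, with 601 exon bases opposite Gm15956 and Rmc1. Mcoln1, the calcium channel of the lysosome, had 1, 10 and 2 counts against 2 and 1 and could not be tested; 10 of its 13 knockout counts came from knockout 2. Its ratio of summed counts was 2.61, with an exact interval of 0.717 to 14.3 (95%, counting error only). The median of the 8 tested membrane proteins was -0.38, and their summed level with Mcoln1 was 2229 to 2277 CPM against 2856 and 3051 CPM.

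Of the 15 V-ATPase genes, 11 were tested, 1 fell and 10 did not pass, and 4 were too low to test. A share of 1 in 11 is near the 8.14% of all tested genes that were lower. Tcirg1, the one that fell, encodes the a3 subunit of V0, which is the form of osteoclasts and of lysosomes in macrophages (Entrez gene 27060, chromosome 19, 3896050 to 3907133). It was at 62.5, 57.1 and 101 CPM with Bmal1 knocked out, against 155 and 149 CPM in wild type cells, which is a log2 difference of -1.02 (SE 0.33, adjusted p = 0.0157). Groups were apart, but the call was lost when knockout 1 (-0.90) or knockout 2 (-0.86) was left out, and when either wild type library was (-1.01 without the first, -1.05 without the other), and with DESeq2 (-1.02). Atp6v0d2, the osteoclast form of the d subunit and an osteoclast marker, is no member; it had 1 count in each knockout library and 5 in each wild type library, too few to test.

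In the V1 sector, the catalytic subunit Atp6v1a was at 149, 76.1 and 121 CPM in knockout cells, against 164 and 202 CPM in wild type cells, a difference that did not pass (-0.66, SE 0.28, adjusted p = 0.0996). Without knockout 1 it did (-0.85, adjusted p = 0.0415; over all its settings it passed in that 1 only). Its partner in the catalytic ring, Atp6v1b2, was at -0.16, with overlapping groups. Atp6v1g1, a stalk subunit and the highest V-ATPase gene per length, was at 120, 114 and 89.0 CPM against 164 and 122 CPM (-0.43, adjusted p = 0.372). Atp6v1c1 was at -0.66 and Atp6v1e1 at -0.30. Atp6v1h, which regulates the pump, went the other way on few counts: 5, 8 and 12 in the knockout against 3 and 2, which gives a ratio of summed counts of 3.01 (interval 1.13 to 10.1). It was too low to test, and 127 of its exon bases lie opposite Rgs20. Atp6v1d had 9, 3 and 9 counts against 4 and 5 (ratio 1.41, 0.617 to 3.49), and Atp6v1f had 8, 6 and 1 against 11 and 6 (0.532, 0.247 to 1.13).

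In V0, Atp6v0b, a proteolipid of the ring, was at -0.72 (SE 0.42, adjusted p = 0.261), on 5, 10 and 15 counts against 21 and 9, with 243 exon bases opposite Gm12841. Atp6v0e was at 67.3, 38.0 and 48.6 CPM against 51.7 and 42.5 CPM (0.11, adjusted p = 0.909) and Atp6v0d1 at -0.20. Atp6v0c, the main proteolipid, had expected counts of 8.44, 0 and 9.62 with Bmal1 knocked out, against 2.44 and 0 in wild type cells. Its values were not whole in any library that listed it, so its reads were shared with other sequences and its level is uncertain; a count of 0 allows up to 3 counts. Neither accessory subunit passed. Atp6ap1 was at 163, 195 and 190 CPM against 193 and 159 CPM (0.05, adjusted p = 0.923), and Atp6ap2, the (pro)renin receptor, was at -0.53 (adjusted p = 0.264). The 11 tested genes had a median of -0.43. Summed over all 15, the level was 1139, 870 and 1032 CPM in knockout cells, against 1311 and 1233 CPM in wild type cells.

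**Figure D4:**
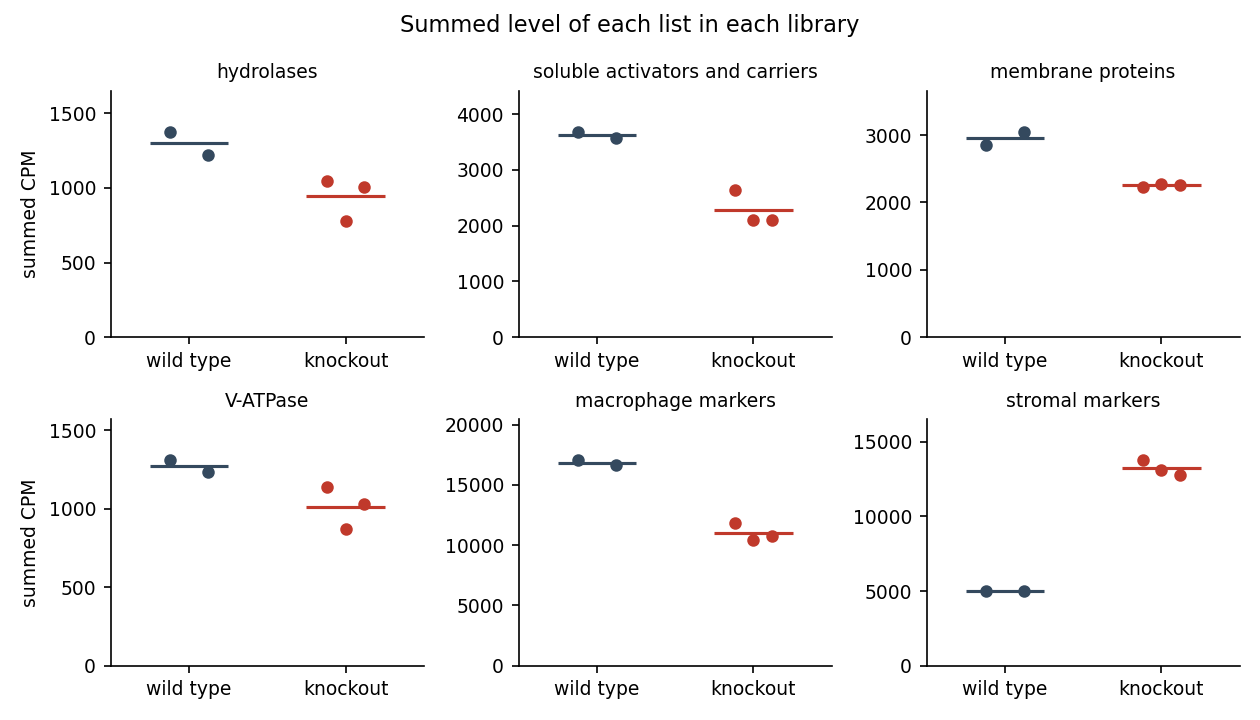
Summed CPM of the members of each role group, and of the macrophage and stromal markers, in each library; points are libraries, lines are group means and axes start at 0. All 4 role groups and the macrophage markers (10420 to 11872 against 16652 to 17059) lie in every knockout library below both wild type libraries. Most of the macrophage sum is from Lyz2. The sum of the stromal markers, most of it from Col3a1, Col1a2, Sparc and Col1a1, lies higher.

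The precision of these values depended on the counts, on the number of libraries and on the spread between libraries that the fit shares across genes. Standard errors ran from 0.11 for Psap to 0.58 for Glb1 on the log2 scale. Of the 26 tested members that did not pass, 13 had an approximate 95% interval that reached below -1, and for 11 the interval lay within -1 and 1. A change of 2-fold was thus not detectable, or not bounded, for many of them. The filter on low counts matters as well: 5 members passed the minimum count through 1 genotype only, Gla and Atp6v1c1 through the wild type and Glb1, Atp6v0e and Atp6v1e1 through the knockout libraries.

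Of 78 listed lysosomal genes outside the 39 members, 54 were too low to test and 24 were tested. Of these 3 fell, 1 rose and 20 did not pass, with a median log2 fold change of -0.35, beside 8.14% lower and 8.19% higher among all tested genes. Their summed level was 6721 to 7158 CPM in knockout cells, against 7329 and 6830 CPM in wild type cells, so the groups overlapped (ratio of means 0.976, and 0.709 for the 39 members). Manba, the beta-mannosidase, named here after its values were seen, made up 3535 of 6911 CPM in knockout cells and 3037 of 7079 CPM in wild type cells, and did not pass (0.22, adjusted p = 0.142). The overlap and the ratio over the 78 genes thus depend strongly on Manba. By list, the ratio of means was 1.03 for the hydrolases, which include Manba, and 0.863 for the membrane proteins. For sorting genes it was 0.807, for V-ATPase subunits 0.605 and for MiT/TFE and docking genes 0.92. Among 12 tested hydrolases and related lumenal proteins, Acp5, the tartrate-resistant phosphatase of osteoclasts and macrophages, was at 91.3, 80.8 and 80.9 CPM with Bmal1 knocked out, against 273 and 154 CPM in wild type cells (-1.35, adjusted p = 7.89e-05). Its call was lost without wild type 1 (-0.89), and 137 of its exon bases lie opposite 6530413G14Rik. Idua, the iduronidase of glycosaminoglycan breakdown, rose, with 21, 13 and 16 counts against 6 and 2 (1.89, SE 0.52, adjusted p = 0.00354). The call of Idua was lost without wild type 2 (1.39), with DESeq2 (1.95) and with voom (1.84), and 265 of its exon bases lie opposite Dgkq and Slc26a1. Of 7 tested membrane proteins 1 fell: Cd68, a LAMP family protein of macrophages (-0.64, adjusted p = 0.0447), whose call was lost when knockout 2 (-0.57) or knockout 3 (-0.64) was left out, and when either wild type library was (-0.48 without the first, -0.80 without the other). Of 2 tested sorting genes 1 fell: M6pr, the cation-dependent mannose 6-phosphate receptor that delivers new hydrolases, was at 211, 204 and 142 CPM against 310 and 276 CPM (-0.67, adjusted p = 0.0290). It too was lost when knockout 2 (-0.74) or knockout 3 (-0.50) was left out, and when either wild type library was (-0.60 without the first, -0.76 without the other). With all 5 libraries kept, Cd68 and M6pr were also lost with DESeq2 (-0.63 and -0.66) and without the filter on low counts (-0.61 and -0.65). A block on replicate number lost both as well (-0.63 and -0.49). Limma lost M6pr on both FPKM scales (-0.70 and -0.71) and Cd68 on 1 of them (-0.66). Plain library totals lost Cd68 (-0.62). Of the MiT/TFE factors and the lysosomal docking proteins of mTORC1 3 of 13 were tested and none passed by edgeR; the smallest p-values were those of Fnip1 (-0.71, adjusted p = 0.255) and Rragc (-0.72, adjusted p = 0.258), and none of the 3 reached 0.05 before adjustment. None of the 7 further V-ATPase subunits listed had enough counts to be tested.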

How the data were processed

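Each library has its own table, deposited by the authors, in which every listed gene carries a length in bases, an expected count and an FPKM, per the file headers. Per the submitters' processing notes, the build was mm10 and the tools were RSEM, Bowtie2, HISAT2 and StringTie; their roles and versions are not stated there. Of the listed expected counts, 93.75% to 94.18% were whole within 0.005. A gene with no row was taken as 0, and counts were rounded to whole numbers. All 5 libraries were fitted with edgeR 4.0.16 in R 4.3.3: filterByExpr (minimum count 10, minimum total 15), TMM, a robust quasi-likelihood test of genotype, and p-values adjusted by Benjamini-Hochberg over all tested genes (threshold 0.05). Standard errors come from the quasi-likelihood F. Deposited FPKM values served to compare genes with each other. DESeq2 1.42.0 and limma 3.58.1 were alternatives.

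Members and lists were chosen with earlier results of these data known. Given in every library are members past the test, the 3 highest per role by FPKM and those too low to test; further members, and motif-bearing promoters, were picked after their values were seen. Other lysosomal genes were named by smallest adjusted p, and markers by highest CPM. Gene coordinates are RefSeq's (GRCm38.p6), and strand overlaps come from GENCODE M21. The labels name no batch.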

Additional observations from a re-analysis of the deposited data

How the results depend on the processing

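Depth limits these results: 5 of the 39 members were too low to test. With DESeq2, 172 genes were higher and 134 lower, against 304 and 302. With limma on log2(FPKM + 1) 171 were higher and 171 lower, and with log2(FPKM + 0.1) 157 and 157. Of the members, 8 fell in the fit reported, 4 with no filter and 3 with DESeq2 or with limma on either FPKM scale. By role, hydrolases went from 3 lower to 1 with no filter, DESeq2, either FPKM scale or the replicate block. Soluble activators and carriers went from 2 to 1 with DESeq2 or either FPKM scale. Membrane proteins went from 2 to 1 with no filter, DESeq2, either FPKM scale or the replicate block. V-ATPase genes went from 1 to 0 with no filter, DESeq2 or either FPKM scale. Of other lysosomal genes, 0 instead of 1 were higher with a minimum count of 20 (which leaves Idua untested), DESeq2 or voom. There, 1 instead of 3 were lower with no filter, DESeq2, log2(FPKM + 0.1) or the replicate block. RLE factors, plain library totals and unrounded counts each left 7 members lower, Gla being the one lost. A minimum count of 20 (which leaves Gla untested) and voom each called 8, with Gm2a in place of Gla. Psap, Gpnmb and Hexa fell in every setting that kept all 5 libraries. Taking tested genes in place of all genes moved the share of promoters with CACGTG from 8.09% to 12.4% and that of the longer form from 1.12% to 2.61%.

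Replicate numbers are shared by the genotypes but nothing says that they pair samples, and same-numbered deviations did not correlate (Pearson r -0.008 for number 1 and 0.026 for number 2). With only 2 wild type libraries, their deviations from the group mean mirror each other, so this check of pairing is weak. The replicate block in effect leaves out knockout 3, whose number no wild type library shares. With it 6 members were lower: Gm2a was gained (-1.13), and Gla, Lamp1 and Lipa were lost. The cause of these differences was not tested.

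With each library left out, 144 to 323 genes were higher and 146 to 287 lower. Of the members 2 to 9 were lower and 0 higher: 0 to 3 hydrolases, 1 to 3 soluble activators and carriers, 1 to 2 membrane proteins and 0 to 1 V-ATPase genes. Of other lysosomal genes, 0 to 2 were higher and 0 to 3 lower. The hydrolase median ranged from -0.47 to 0.06. Among members that did not pass, the sign turned for Cd63 (-0.03 to 0.48), Laptm4a (-0.21 to 0.10), Atp6ap1 (-0.08 to 0.18), Atp6v0e (-0.10 to 0.28), Atp6v1e1 (-0.84 to 0.42), Ppt1 (-0.43 to 0.62), Atp6v1b2 (-0.33 to 0.01), Gusb (-0.80 to 0.12), Tpp1 (-0.42 to 0.02), Man2b1 (-0.19 to 0.43), Scarb2 (-0.89 to 0.36), Gaa (-0.18 to 0.14) and Neu1 (-0.75 to 0.06). Ppt1 was also above 0 with plain totals (0.01), no filter (0.01), DESeq2 (0.01) and voom (0.02), and Gaa below 0 with voom (-0.03) and on both FPKM scales (-0.03). No called member changed direction in any setting.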

Other observations

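Within a library, the ratio of Lamp2 to Lamp1 in FPKM was 0.475, 0.483 and 0.533 in knockout cells, against 0.379 and 0.287 in wild type cells, so the groups did not overlap. The ratio of Gpnmb to Lamp1 was 0.223, 0.193 and 0.210 in knockout cells, against 0.391 and 0.457 in wild type cells, and that of Psap to Npc2 was 3.69, 3.28 and 3.51 against 4.96 and 4.69. The ratio of Tcirg1 to Atp6v1a was 0.6, 1.11 and 1.19 against 1.27 and 1.02, and there the groups overlapped. These 4 pairs were chosen after their values were seen, and the differences were not tested.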
